A study of Mus musculus with 12 samples.

Results

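Potassium channels are built from pore-forming subunits, made by one of the largest ion channel gene families, and from accessory subunits that bind them. The 60 genes described here are those whose symbol begins with Kcn in the deposited table and whose mean value over the 12 libraries was at least 0.5, out of 74 such rows and 17637 genes in all. They comprised 24 voltage-gated subunits, 9 inward rectifiers, 6 two-pore channels, 6 channels grouped as calcium-activated, 14 accessory subunits and 1 noncoding RNA, Kcnq1ot1, which shares the prefix but makes no channel. The choice used the level over all libraries and not the difference between tissues, but 7 members had a mean under 0.5 in one tissue and passed through the other. They were Kcnma1, Kcnmb1, Kcnip1 and Kcns3, all higher in artery, whose ventricle means were 0.175, 0.479, 0.137 and 0.375, and Kcna2, Kcnk13 and Kcnmb2, which did not pass the test below. Of the 14 rows under the minimum, 10 were voltage-gated. The rows nearest to the minimum were Kcnk13 and Kcna2, with means of 0.567 and 0.569, just inside it, and Kcnv2, with a mean of 0.424, was outside.

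RNA came from the hearts of wild type CD1 mouse embryos, an outbred stock, at stage E16.5. The artery group was the mesothelium with the tissue just beneath it, peeled from where the great arteries leave the heart, and the ventricle group was the epicardium with its subepicardium, peeled from the ventricles. Each group had 6 libraries. Every litter gave 1 pool of each tissue, so the comparison was made within 6 litters. Its p-values weigh the difference between the pools of a litter against the spread of that difference over litters.

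Potassium channels let potassium leave the cell and so set the resting membrane potential and end the action potential. In heart muscle, voltage-gated channels and inward rectifiers repolarise the cell, whereas in arterial smooth muscle calcium-activated, voltage-gated and ATP-sensitive channels oppose contraction. Accessory subunits change how many channels reach the membrane and at which voltage or calcium level they open.

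The table gave normalised reads per M reads, called values below, from which whole read numbers could be recovered. Libraries held 6.77 to 18.99 M reads in artery and 16.45 to 22.1 M in ventricle, with artery 1 (6.77 M) and artery 6 (7.97 M) the shallowest. Peeled layers contain several cell types. Of 10 heart muscle markers 9 were lower in artery and none higher, and their summed value was 3570 to 13561 in artery and 11543 to 30075 in ventricle. All 6 smooth muscle markers were higher in artery (sums of 1769 to 3656 against 478 to 758), as were 4 of 6 pericyte markers and 4 of 5 red cell markers. All 6 epicardium and mesothelium markers were lower in artery, with sums of 1373 to 2722 against 2181 to 4160, and were present in every library. Of the tested autonomic neuron markers 2 of 7 were higher (sums of 15.5 to 46.5 against 7.39 to 9.85), while 4 of 5 glial markers were lower and 1 higher. Among endothelial markers 1 of 6, and among macrophage markers 1 of 4, was lower. In bulk tissue, fewer cells of a type and less RNA per cell cannot be told apart, and the part of these markers in the channel differences was not tested.

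Of the 60 members, 15 were higher in artery, 16 were lower and 29 did not pass adjusted p 0.05 (limma with a litter term, over 16037 genes). That is 51.7% of the members, where 23.4% of all tested genes passed, 11.6% higher and 11.8% lower. With a log2 difference of at least 1 as well, 19 members passed, against 6.2% of all tested genes. Over the 53 members with a mean of at least 0.5 in both tissues, 11 were higher and 16 lower, or 50.9%, where 23.0% of such genes passed. The other 4 of the 15 entered through artery alone, which favours a higher artery value by the choice itself. These 4 are also among the 19 members above and among the higher members in the class counts below. The count over 53 members and the per-kb values without artery 4 given later were added after the data were seen. The median absolute difference on the log2(value + 1) scale was 0.64 for the members and 0.23 for all tested genes. Of the 14 accessory subunits, 7 were higher, 1 was lower and 6 did not pass, with a median log2 difference of 0.85. Of the 24 voltage-gated subunits, 5 were higher, 10 were lower and 9 did not pass, with a median of -0.48. Calcium-activated channels had 1 higher and 3 lower of 6, inward rectifiers 1 and 1 of 9, and two-pore channels 1 and 1 of 6. The differences between classes were not tested.

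**Figure D1:**
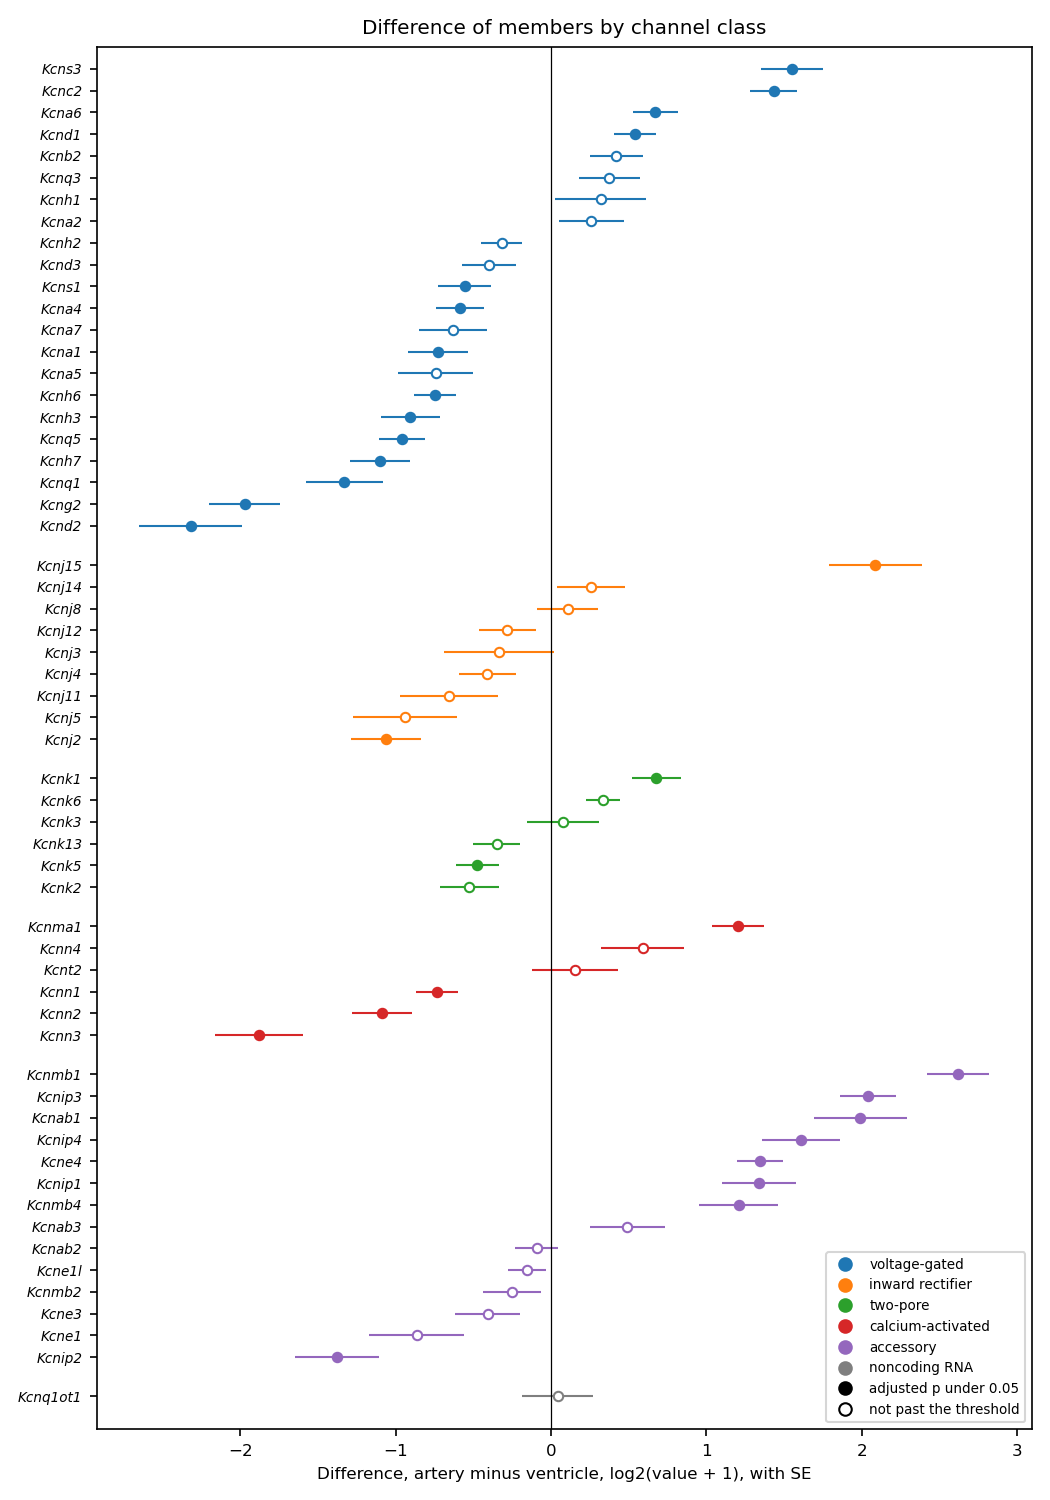
Difference of 58 of the 60 members between artery and ventricle (horizontal axis, log2(value + 1), artery minus ventricle, with SE over 6 litters), grouped by channel class and sorted within it; filled points passed adjusted p 0.05 in limma. The accessory subunits reach furthest to the right, with Kcnmb1 at 2.62, and the voltage-gated subunits furthest to the left, with Kcnd2 at -2.32. Kcnmb1 reached the minimum mean through artery alone.

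Groups of 6 libraries did not overlap for 20 members, 12 higher and 8 lower, where 11.5% of all tested genes were so separated (7.43% higher and 4.05% lower). For 30 members all 6 litters moved in one direction, against 26.3% of tested genes. The 12 and the 30 both include Kcnma1, Kcnmb1, Kcnip1 and Kcns3, which entered through artery alone. One library weighed on the lower members. For 10 of the 16 members lower in artery, the highest artery value was that of artery 4, which also had the highest artery sum of the epicardium and mesothelium markers (2722, the others 1373 to 1881), while its heart muscle sum of 9363 lay within the artery range. Artery 4 was also the highest artery library for the endothelial (941) and macrophage (198) sums and the lowest for the smooth muscle (1769, the others 2387 to 3656), pericyte (837, the others 847 to 1928), autonomic neuron (15.5, the others 19.1 to 46.5) and red cell (3218, the others 3235 to 18815) sums. Without artery 4, a setting added after the data were seen, 13 members were separated upward and 13 downward, against 9.21% and 8.42% of tested genes. Kcnma1, Kcnmb1, Kcnip1 and Kcns3 are again among those separated upward. Sequencing lane was divided unevenly between the groups. Within lane 1 (2 artery and 2 ventricle libraries) and within lane 2 (3 and 4), all 31 members past the threshold kept their direction, though 4 and 11 of them passed on so few libraries, and artery 6 was alone in its lane.

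Promoters of 3 members are shown because these members lead the differences. Kcnmb1 has the largest rise, although it reached the minimum through artery alone. Kcnd2 has the largest fall, and Kcnip2 makes the accessory subunit that joins the Kcnd2 pore. Each is the stretch of 250 bases before the start in RefSeq (GRCm38.p6), 5′ to 3′ on the gene's strand, with CG dinucleotides in capitals. They lie at chr11:33962763-33963012 (plus strand), chr6:21215096-21215345 (plus strand) and chr19:45816064-45816313 (minus strand).
Kcnmb1: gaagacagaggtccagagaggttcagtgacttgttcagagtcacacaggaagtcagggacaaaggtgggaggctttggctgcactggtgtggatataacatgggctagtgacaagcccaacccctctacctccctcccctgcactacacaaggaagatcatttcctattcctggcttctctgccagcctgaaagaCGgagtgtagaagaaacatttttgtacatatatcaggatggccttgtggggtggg
Kcnd2: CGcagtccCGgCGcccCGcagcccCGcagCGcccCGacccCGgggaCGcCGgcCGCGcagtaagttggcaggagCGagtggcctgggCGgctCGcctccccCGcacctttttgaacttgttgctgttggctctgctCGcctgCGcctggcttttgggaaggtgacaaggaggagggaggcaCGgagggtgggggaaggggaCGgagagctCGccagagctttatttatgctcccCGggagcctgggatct
Kcnip2: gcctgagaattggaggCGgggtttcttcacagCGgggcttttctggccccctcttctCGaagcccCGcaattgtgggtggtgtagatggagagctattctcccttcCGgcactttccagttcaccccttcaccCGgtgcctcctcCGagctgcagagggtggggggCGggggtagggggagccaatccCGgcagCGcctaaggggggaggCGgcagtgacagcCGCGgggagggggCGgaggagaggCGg
The Kcnmb1 stretch holds 1 CG dinucleotide, whereas that of Kcnd2 holds 22 and that of Kcnip2 holds 15. Over 32851 promoters of the same length in the table, the quartiles were 2, 6 and 16. Promoters were at hand for 44 of the 60 members, with 63 starts. The median count was 5 for the 24 starts of 13 members higher in artery, 14 for the 13 starts of 11 members lower and 7.5 for the 26 starts of 20 others. Members with several starts, such as Kcnc2, weigh more than once in these medians, and the difference was not tested. In the 300 bases around these 63 starts no CArG box and no MEF2 site was found on either strand, where 1.63% and 3.19% of all promoters held a match. These are binding motifs of serum response factor and of the MEF2 factors of muscle, and the search says nothing about sites elsewhere.

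The large-conductance calcium-activated channel, known as BK, was higher in artery in its pore and in 3 of the subunits that modify it, although Kcnma1 and Kcnmb1 are among the members that reached the minimum through artery alone. Kcnmb1 (chr11:33963013-33973641 in GRCm38, plus strand), whose product raises the calcium sensitivity of the channel in smooth muscle, had artery values of 4.67 at the lowest, 7.16 at the median and 14.3 at the highest, and ventricle values of 0.334, 0.425 and 0.711. Artery 1 and artery 3 were highest, and the lowest artery library was still far above the highest ventricle library. The difference was 2.62 ± 0.20 (SE) on the log2(value + 1) scale (limma, adjusted p = 4.69e-05), and 4.18 on the log2 scale of edgeR, since a pseudocount of 1 shrinks differences between low values. Kcnma1, the pore of this channel, was read thinly, with 144 reads in artery against 16 in ventricle over all 12 libraries. Its values were 1.09, 1.82 and 2.24 in artery and 0.0799, 0.104 and 0.530 in ventricle. The groups did not overlap, and ventricle 5 alone of the ventricle libraries was above 0.142. Kcnma1 differed by 1.2 ± 0.17 (limma, adjusted p = 0.00107), or by 3.64 in edgeR.

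Lrrc55, a leucine-rich repeat protein that acts as a gamma subunit of BK, ran from 4.42 to 9.91 in artery (median 7.36) and from 0.879 to 2.04 in ventricle (median 1.15), without overlap, a log2 difference of 1.81 ± 0.18 (limma, adjusted p = 0.000165). Kcnmb4, the beta subunit best known from neurons, is named after its values were seen. It ran from 3.84 to 10.7 in artery and 1.38 to 3.09 in ventricle, a log2 difference of 1.21 ± 0.26 (limma, adjusted p = 0.00888), and 20.8% of its exons overlap an antisense gene, Kcnmb4os2 (mean value 0.316), from which unstranded reads cannot separate it. Kcnmb2, the remaining beta subunit among the members, did not pass, with medians of 0.517 and 0.869.

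The small-conductance calcium-activated channels went the other way. All 3 SK genes, Kcnn1, Kcnn2 and Kcnn3, were lower in artery. Kcnn3 had artery values of 6.74 at the lowest, 9.12 at the median and 48.4 at the highest, and ventricle values of 33.6, 42.6 and 58.2. The high artery value belonged to artery 4, which lay among the ventricle libraries while the other 5 stayed at or under 10.8. The difference was -1.88 ± 0.28 (limma, adjusted p = 0.00167) and -2.20 without litter 4. Kcnn2 ran from 1.49 to 3.60 in artery and from 5.27 to 10.6 in ventricle, and fell by 1.09 ± 0.19 on the log2(value + 1) scale (limma, adjusted p = 0.00393). Kcnn1 ran from 3.07 to 6.19 and from 6.23 to 12.4, so that its groups met without crossing, and fell by 0.73 ± 0.14 (limma, adjusted p = 0.00471). Artery 4 did not stand apart for either, and ventricle 2 was the highest library for both. The intermediate-conductance channel Kcnn4 did not pass (medians 2.60 and 1.49, limma adjusted p = 0.145), with artery 1 far above the rest at 6.6. Nor did the sodium-activated Kcnt2, of the same family as BK (medians 8.37 and 5.67, adjusted p = 0.728), where artery 1 was far below the other artery libraries at 2.25. Without litter 1, Kcnt2 was higher by 0.50 (limma, adjusted p = 0.00926).

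**Figure D2:**
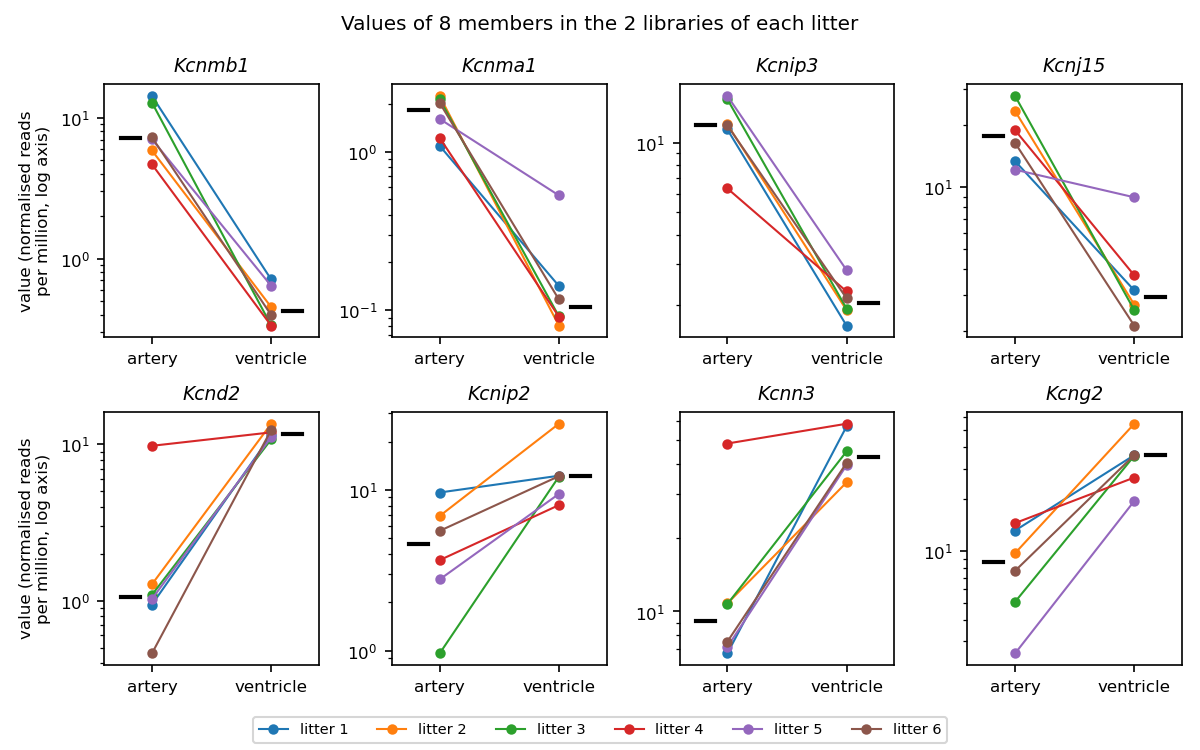
Values of 8 members (normalised reads per M, log axis) in the artery and ventricle library of each litter, joined by a line, with black bars for the group medians. Every line falls from artery to ventricle for Kcnmb1, Kcnma1, Kcnip3 and Kcnj15 and climbs for Kcnd2, Kcnip2, Kcnn3 and Kcng2. Litter 4 is nearly level for Kcnd2 (9.79 in artery 4, 11.9 in ventricle 4) and for Kcnn3 (48.4 and 58.2).

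Kv4 channels, which carry the transient outward current of rodent ventricular muscle, differed by subunit. Kcnd2 (chr6:21215503-21729805, plus strand) had artery values of 0.458 at the lowest, 1.06 at the median and 9.79 at the highest, and ventricle values of 10.8, 11.7 and 13.6. Artery 4 again was the high library, the other 5 being at or under 1.27, and the groups did not overlap. Kcnd2 fell by 2.32 ± 0.33 on the log2(value + 1) scale (limma, adjusted p = 0.00128), and by 2.73 without litter 4. Within lane 1 the log2 difference was -2.64 and within lane 2, which holds artery 4, it was -1.82. Kcnd1 was higher, from 10.5 to 15.2 in artery against 5.89 to 9.69 in ventricle without overlap, a log2 difference of 0.54 ± 0.14 (limma, adjusted p = 0.0194). That call was lost without litter 2, litter 3 or litter 5 (adjusted p = 0.0721, 0.0641 and 0.0758). Kcnd3, the subunit shared by many cell types, did not pass (medians 8.16 and 10.02, adjusted p = 0.132). Per kb of exons, the ratio of Kcnd1 to Kcnd2 had a median of 12.9 in artery and 0.696 in ventricle, and its lowest artery value, 1.07, was that of artery 4.

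All 4 genes of the KChIP family, calcium-binding proteins that attach to Kv4 pores, passed the threshold, 3 of them higher and 1 lower. Of the 3 higher, Kcnip1 reached the minimum mean through artery alone. Kcnip2, the KChIP of heart muscle, had values of 0.963, 4.61 and 9.64 in artery and 8.05, 12.1 and 25.8 in ventricle. The groups overlapped, because artery 1 was above ventricle 4 and ventricle 5, and ventricle 2 stood far above the other ventricle libraries. It fell by 1.38 ± 0.27 on the log2(value + 1) scale (limma, adjusted p = 0.00638). Kcnip3, also known as DREAM, a calcium-dependent repressor of transcription, had values of 6.34, 11.9 and 15.9 in artery and 1.62, 2.02 and 2.82 in ventricle. Artery 4 was the lowest artery library, and no library crossed between the groups. Kcnip3 rose by 2.04 ± 0.18 (limma, adjusted p = 9.88e-05), with 2.24 in lane 1 and 1.91 in lane 2. Per kb of exons, the ratio of Kcnip2 to Kcnip3 was 0.0639 to 0.864 in artery and 3.42 to 13.9 in ventricle, so Kcnip3 was the higher of the pair in every artery library and Kcnip2 in every ventricle library.

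Kcnip4 ran from 1.52 to 6.8 in artery and from 0.346 to 0.697 in ventricle, without overlap, a log2 difference of 1.61 ± 0.25 (limma, adjusted p = 0.00211) and of 2.90 in edgeR. Kcnip1, named after its values were seen, had 143 reads in artery and 12 in ventricle, with 1 ventricle library at 0 reads. Kcnip1 reached the minimum mean through artery alone, with a ventricle mean of 0.137. Its log2 difference was 1.34 ± 0.24 (limma, adjusted p = 0.00407) and 4.03 in edgeR. The Kcnmb1 gene lies inside the span of Kcnip1 (chr11:33629339-33993152, minus strand) on the other strand, and their annotated exons do not overlap. Dpp6, which forms a complex with Kv4 pores and KChIPs, was higher too, from 0.685 to 1.83 in artery against 0.273 to 0.585 in ventricle (log2 difference 0.81 ± 0.15, limma adjusted p = 0.00449), whereas its relative Dpp10 did not pass. Dpp6 reached the minimum mean through artery alone, with a ventricle mean of 0.397.

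Silent modifier subunits, which do not form channels alone but join the pores of other voltage-gated subunits, showed some of the largest differences. Kcng2 (chr18:80294546-80364254, minus strand) had values of 2.54, 8.68 and 14.5 in artery and 19.5, 35.8 and 54.6 in ventricle. No library crossed, with artery 5 lowest of all and ventricle 2 highest. Kcng2 fell by 1.97 ± 0.23 on the log2(value + 1) scale (limma, adjusted p = 0.000425), and gave -1.99 within lane 1 and -1.97 within lane 2. Kcns3 had values of 1.76, 2.89 and 5.70 in artery and 0.142, 0.329 and 0.760 in ventricle. Artery 6, a shallow library, stood above the other artery libraries, and the groups did not overlap. Kcns3 rose by 1.55 ± 0.20 (limma, adjusted p = 0.000685), or by 3.21 in edgeR. It reached the minimum mean through artery alone, with a ventricle mean of 0.375. Kcns1, named after its values were seen, was lower by 0.55 ± 0.17 (limma, adjusted p = 0.0426), a call that was lost without any one of litters 1 to 5 (adjusted p of 0.0509 to 0.14) and without the litter term. Kcnb2, a delayed rectifier pore that such subunits join, had medians of 2.73 and 1.91 and did not pass (limma, adjusted p = 0.113).

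In the Kcnq family, Kcnq1 and Kcnq5 were lower in artery. Kcnq1, the pore of the slow delayed rectifier of the heart, is named after its values were seen. It had values of 4.13, 13.2 and 16.2 in artery and 18.4, 27.7 and 43.5 in ventricle, without overlap, and fell by 1.33 ± 0.25 (limma, adjusted p = 0.00484). Kcne1, the accessory subunit of that current, did not pass (log2 difference -0.86 ± 0.31, limma adjusted p = 0.0721), with overlapping values of 7.11 to 51.7 in artery and 30.0 to 81.8 in ventricle. Without litter 6, Kcne1 was lower by 1.11 (limma, adjusted p = 0.0383). Kcnq1ot1, the noncoding RNA transcribed from within Kcnq1 on the other strand, had medians of 50.2 and 39.6 and did not pass (adjusted p = 0.914), and its annotated exons share 121 bases with those of Kcnq1. Kcnq5 had values of 6.29, 7.60 and 18.1 in artery and 15.9, 17.7 and 21.6 in ventricle. Only artery 4 overlapped the ventricle libraries. Kcnq5 fell by 0.96 ± 0.15 (limma, adjusted p = 0.00181), and by 1.10 without litter 4.

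Of the 5 Kcnh genes, 3 were lower in artery and 2 did not pass. Kcnh2, the pore of the rapid delayed rectifier, was second in level per kb of exons in both tissues, with values of 38.4 to 69.5 in artery and 46.0 to 86.4 in ventricle, with overlapping groups (log2 difference -0.32 ± 0.13, limma adjusted p = 0.122). It passed without litter 1 (-0.40, adjusted p = 0.0363) or litter 4 (-0.42, adjusted p = 0.0486). Its relatives Kcnh6 and Kcnh7 were at 0.328 and 0.115 per kb in artery, where Kcnh2 was at 10.5. Kcnh7 ran from 0.673 to 3.78 in artery and from 4.13 to 5.26 in ventricle, the top artery value being that of artery 4, and fell by 1.10 ± 0.19 on the log2(value + 1) scale (limma, adjusted p = 0.00373). Kcnh6 ran from 0.621 to 2.11 and from 1.68 to 4.22, with overlap, and fell by 0.75 ± 0.14 (limma, adjusted p = 0.0046). Kcnh3, named after its values were seen, fell by 0.90 ± 0.19 (limma, adjusted p = 0.00855).

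Among the Kcna genes and Kcnc2, which make delayed rectifiers and fast-inactivating channels, directions differed between neighbours on the chromosome. Kcna5 (chr6:126532551-126535412), Kcna1 (chr6:126640397-126646384) and Kcna6 (chr6:126708329-126740674) lie side by side on the minus strand. Kcna6 was higher, at 8.27 to 17.6 in artery against 5.2 to 9.36 in ventricle with overlap, by 0.67 ± 0.14 (limma, adjusted p = 0.00968), though 39.6% of its exons overlap an antisense gene, Gm26673. Kcna1 was lower by 0.73 ± 0.20 (limma, adjusted p = 0.0252), and lost the call without litter 3, 4, 5 or 6 (adjusted p of 0.0558 to 0.0903). Kcna5, the ultrarapid delayed rectifier, had values of 4.28, 10.2 and 17.5 in artery and 12.5, 15.2 and 20.3 in ventricle, and did not pass (limma, adjusted p = 0.0502). Artery 4 was again the library inside the ventricle range, and without litter 4 Kcna5 was lower by 0.92 (limma, adjusted p = 0.0231). Kcna4, which like Kcna1 is named after its values were seen, ran from 3.60 to 6.22 in artery and from 6.34 to 8.39 in ventricle, and fell by 0.59 ± 0.15 (limma, adjusted p = 0.0221). It lost the call without litter 2, 3 or 5 (adjusted p of 0.0683 to 0.0836). Kcnc2, a fast channel best known from interneurons, ran from 3.41 to 5.99 in artery and from 0.678 to 1.2 in ventricle without overlap. It rose by 1.43 ± 0.15 (limma, adjusted p = 0.000234), or by 2.20 in edgeR. The voltage-gated subunits Kcna2, Kcna7, Kcnh1 and Kcnq3 did not pass, with log2 differences of -0.63 to 0.38, and Kcna7 was lower by 0.78 without litter 6 (limma, adjusted p = 0.0475).

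Of the 9 inward rectifiers, 1 was higher, 1 lower and 7 did not pass. Kcnj15, an inward rectifier best known from kidney and other epithelia, had values of 12.2, 17.7 and 27.8 in artery and 2.13, 2.92 and 8.95 in ventricle. Ventricle 5 stood above the other ventricle libraries, which reached 3.74, and the groups did not overlap. Kcnj15 rose by 2.09 ± 0.30 on the log2(value + 1) scale (limma, adjusted p = 0.00127). Kcnj2, the main pore of the inward rectifier current that holds the resting potential of heart muscle, had values of 3.41, 7.86 and 12.7 in artery and 13.5, 17 and 24.2 in ventricle. The highest artery library lay just under the lowest ventricle library. Kcnj2 fell by 1.06 ± 0.22 (limma, adjusted p = 0.00888).

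The ATP-sensitive and acetylcholine-activated channels did not pass. Kcnj8, the pore of the vascular ATP-sensitive channel, had values of 15.5, 19.2 and 47.2 in artery and 16.8, 19.4 and 27 in ventricle (log2 difference 0.11 ± 0.19, limma adjusted p = 0.727). Artery 3 and ventricle 2 each stood above the rest of their group, and without litter 3 the difference was -0.12. Its sulfonylurea receptor Abcc9 (medians 74.7 and 98.6) did not pass either, nor did Abcc8 (9.19 and 16.9). Kcnj11, the other pore of this kind, ran from 1.67 to 16.3 in artery and 5.62 to 12 in ventricle (limma, adjusted p = 0.173), with artery 1 the highest library of all. Without litter 1 it was lower by 0.99 (limma, adjusted p = 0.00895), as was Kcnj4 by 0.56 (adjusted p = 0.0201). Kcnj5, a pore of the acetylcholine-activated channel of the atrium and sinus node, ran from 5.82 to 63.0 in artery and 26.9 to 59.5 in ventricle (limma, adjusted p = 0.0743), artery 1 being above every ventricle library. It was lower by 1.17 without litter 4 (limma, adjusted p = 0.042). Kcnj12 and Kcnj14, at log2 differences of -0.28 and 0.26, did not pass. Kcnj3, the partner of Kcnj5, had medians of 2.83 and 4.37 (adjusted p = 0.534), and 31.1% of its exons overlap an antisense gene, Gm26794.

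Two-pore channels carry background currents, and differences among them were small. Kcnk1 ran from 4.28 to 8.67 in artery and from 2.37 to 4.34 in ventricle, and was higher by 0.68 ± 0.16 (limma, adjusted p = 0.0132), a call lost without litter 2 or 3 (adjusted p = 0.0537 and 0.0569). Kcnk5, an acid-sensitive channel of epithelia, ran from 15.1 to 22.5 and from 19.5 to 34.0, and was lower by 0.47 ± 0.14 (limma, adjusted p = 0.0358). That call was lost without litter 4, 5 or 6 (adjusted p = 0.0599, 0.123 and 0.1). Groups overlapped for both although all 6 litters moved one way. Kcnk6 (medians 29.0 and 24.4, limma adjusted p = 0.0533) and the acid-sensitive Kcnk3 (23.4 and 21.3, adjusted p = 0.843) did not pass. Kcnk6 was higher by 0.42 without litter 6 (limma, adjusted p = 0.0296). Kcnk13, near the minimum, did not pass (log2 difference -0.35), and the stretch-activated Kcnk2 was lower by 0.67 without litter 4 (limma, adjusted p = 0.033).

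The other accessory subunits that passed were Kcne4 and Kcnab1. Kcne4, an inhibitory partner of Kcnq1 and of several Kcna pores, had values of 15.0, 24.0 and 30.1 in artery and 6.41, 8.91 and 10.1 in ventricle. No library crossed, artery 4 being the lowest of the artery group. Kcne4 rose by 1.34 ± 0.15 (limma, adjusted p = 0.00029). Kcnab1, a cytoplasmic beta subunit that speeds inactivation of Kcna channels, had values of 6.02, 14.7 and 23.2 in artery and 1.2, 2.62 and 4.95 in ventricle. It rose by 1.99 ± 0.30 (limma, adjusted p = 0.00163), without overlap, artery 1 being its lowest artery library. Kcne1l, Kcne3, Kcnab2 and Kcnab3 did not pass, and Kcne1l differed by -0.16 ± 0.12 with the highest artery value, 22.4, again in artery 4.

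Levels of different genes were compared per kilobase (kb) of annotated exons, merged over all transcripts of a gene. On that scale the most abundant subunits of artery were Kcne1l at 10.7 ± 2.16 (SD, n = 6), Kcnh2 at 10.5 ± 2.27, Kcnj8 at 9.22 ± 4.63, Kcne1 at 9.14 ± 5.22 and Kcne4 at 8.79 ± 2.34 per kb. The order of these means was not tested. In ventricle the order began with Kcne1 at 14.9 ± 5.49, Kcnh2 at 13.2 ± 3.00, Kcne1l at 11.8 ± 0.77, Kcng2 at 11.6 ± 3.95 and Kcnj5 at 9.06 ± 2.99 per kb. This order was not tested either. Kcne1 and Kcnh2 were above Kcnj5 in every ventricle library, whereas Kcne1l and Kcng2 were below Kcnj5 in ventricle 1. Kcnip3 was in place 10 of 60 in artery and 40 in ventricle, and Kcnmb1 in place 18 and 57. Kcnd2 was in place 43 in artery, at a mean of 0.471 per kb, and 17 in ventricle, but without artery 4 its artery mean was 0.186 and its place 53. The summed level of the voltage-gated class was 34.9 ± 6.38 per kb in artery and 53.6 ± 8.63 in ventricle, that of the calcium-activated class 4.67 ± 1.51 and 8.46 ± 0.776. Two-pore channels summed to 22.8 ± 5.14 and 21.9 ± 1.00 per kb, and accessory subunits to 43.7 ± 7.37 and 38.9 ± 7.15. Kcnn3 made up 51.5% of the calcium-activated sum in ventricle and 31.2% in artery, the latter 20.1% without artery 4. Kcnma1 was in place 59 and 60, where its accessory subunit Kcnmb1 was at 2.07 ± 0.938 per kb in artery. The merged exons of Kcnma1 are long, 16976 bases against 4191 for Kcnmb1, which lowers its place. Before division by length, Kcnma1 had low means of 1.72 in artery and 0.175 in ventricle, and Kcnmb1 had 8.66 and 0.479.

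**Figure D3:**
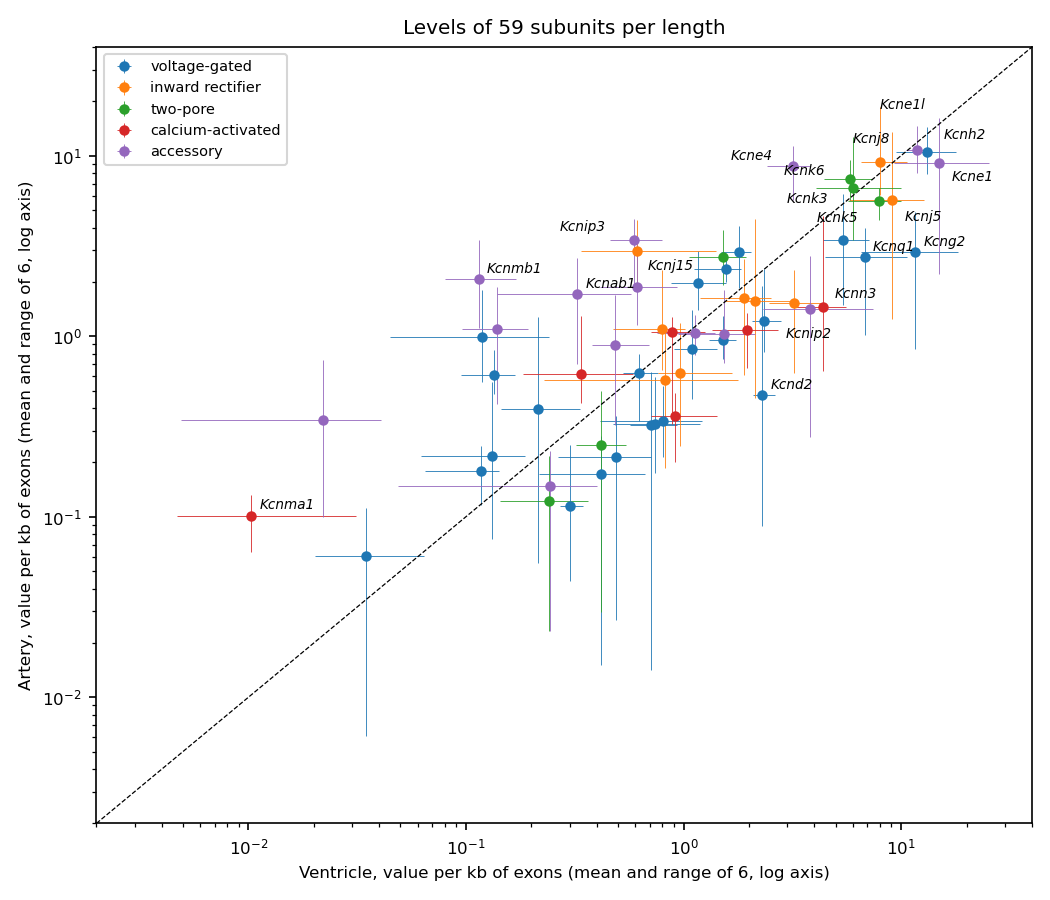
Mean level of 59 subunits per kb of exons in ventricle (horizontal, log axis) and artery (vertical, log axis), with the range over 6 libraries, coloured by class; the dashed line marks equal levels. Kcnmb1 (2.07 against 0.114) and Kcnip3 (3.42 against 0.595) lie above the line and Kcnd2 (0.471, or 0.186 without artery 4, against 2.30) and Kcng2 (2.93 against 11.6) below it, while Kcnh2 and Kcne1l lie near it.

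The members lower in artery did not share one pattern over the libraries. In ventricle 2, which had the highest heart muscle marker sum (30075) and the lowest ventricle sum of the epicardium and mesothelium markers (2181), 7 of the 16 members had their highest value of the ventricle group: Kcng2, Kcnd2, Kcnq1, Kcnj2, Kcnn1, Kcnn2 and Kcnip2. In the same library 6 others were at the lowest value of that group: Kcnq5, Kcnh3, Kcna1, Kcns1, Kcnk5 and Kcnn3. These members are named after their values were seen. Artery 4 was the highest artery library for Kcng2, Kcnd2 and Kcnn2 of the first set and for Kcnq5, Kcnh3, Kcna1 and Kcnn3 of the second. Of the 15 members higher in artery, 6 were lowest in artery 4, the artery library with the lowest smooth muscle, pericyte and autonomic neuron sums, and 7 had their highest ventricle value in ventricle 5. Whether the marker sums account for any of these values was not tested.

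**Figure D4:**
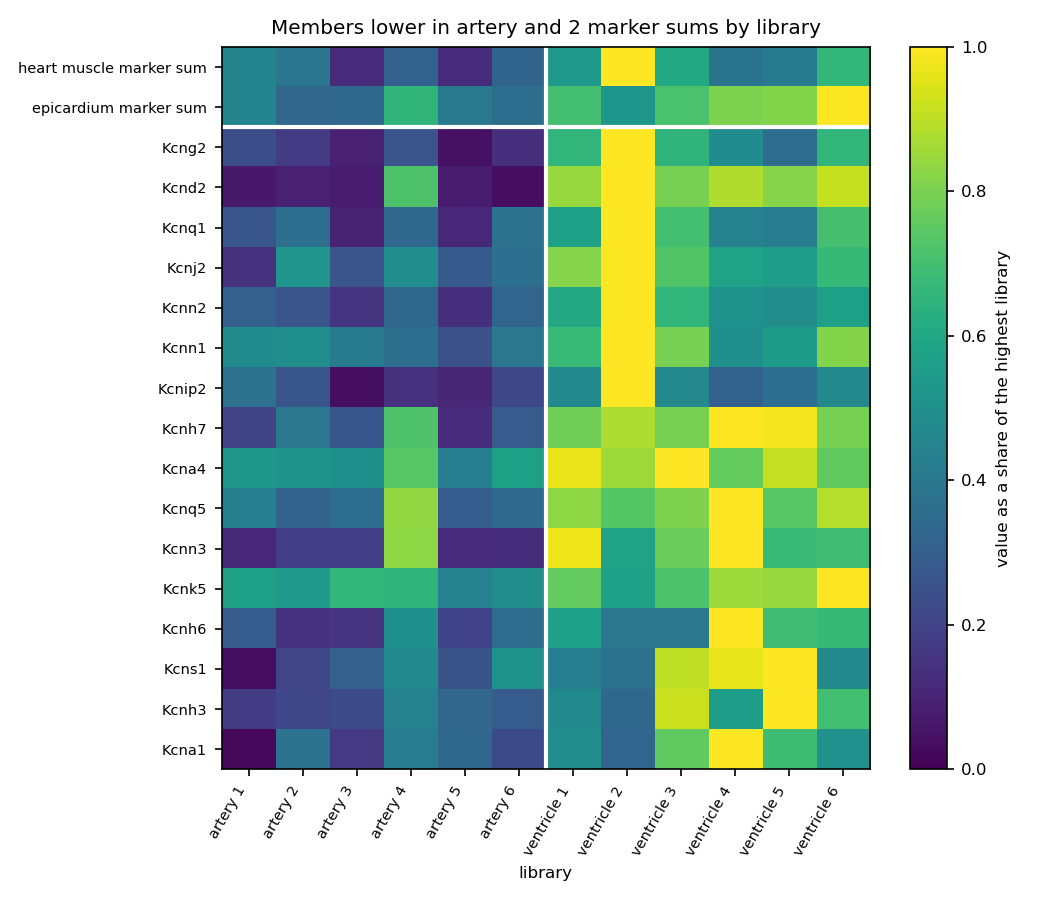
Value in each of the 12 libraries as a share of the highest library (colour scale from 0 to 1) for the heart muscle and the epicardium and mesothelium marker sums and for the 16 members lower in artery, ordered by their share in ventricle 2. Members at the top are highest in ventricle 2, like the heart muscle sum, those at the bottom are highest in other ventricle libraries, and artery 4 is the brightest artery column for 10 of the 16.

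Among 21 tested genes whose products form or regulate potassium channel complexes without a Kcn name, 6 were higher and 1 was lower. Of the 6, Dpp6 and Snap25 reached the minimum mean through artery alone, with ventricle means of 0.397 and 0.201. The choice itself favours a higher artery value for them. Stx1a, a membrane fusion protein that also binds Kv channels, had values of 33.9, 51.1 and 68.6 in artery and 10.6, 13.2 and 14.2 in ventricle without overlap, and rose by 1.88 ± 0.15 (limma, adjusted p = 5.64e-05). Tmem38a, a cation channel of the sarcoplasmic reticulum, ran from 26.7 to 61.1 and from 41.5 to 86.5, and fell by 0.66 ± 0.17 (limma, adjusted p = 0.0223). Of 13 calcium and sodium channel genes, 3 were higher, 3 were lower and 7 did not pass. Over all tested genes, 11.6% were higher and 11.8% lower. Whether either list departs from these shares was not tested. Cacna1g, a T-type calcium channel, was higher by 1.23 ± 0.12 (93.2 to 199 in artery, 49.9 to 73.7 in ventricle, limma adjusted p = 0.000196). Ryr2, the calcium release channel of heart muscle, was lower by 1.26 ± 0.27 (limma, adjusted p = 0.00987), Cacnb2 by 0.54 ± 0.10 (adjusted p = 0.00555) and Scn7a by 1.3 ± 0.38 (adjusted p = 0.0344), each with overlapping groups. Scn7a, which codes for a sodium-sensing channel, was not past the threshold in edgeR (adjusted p = 0.0539).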

How the data were processed

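Layers were peeled with forceps and frozen, RNA was extracted on RNeasy columns, and polyA libraries (NEBNext Ultra) were read as single ends of 50 bases on an Illumina instrument, as the labels' protocols state. CASAVA 1.8.2, cutadapt 1.3, RSEM 1.2.3 and the build GRCm38 come from the submitters' processing notes; the normalisation step is not given in the sources used here. What was deposited is a table that holds a normalised signal made by the authors, 17637 genes in 12 libraries, whose column sums ran from 982252 to 1067983. Each value was (whole reads + 0.5) per M of a scaled library size: 100% of 211644 values came out whole within 0.02 reads, which gave the depths (mean 14.2 ± 5.37 M reads in artery, 18.4 ± 2.12 M in ventricle, SD, n = 6). So 0 reads appear as a small value. Every column of values was used.

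The design planned limma unless the table held counts, so limma 3.58.1 (R 4.3.3; trended, robust) was run on log2(value + 1), where 1 is the pseudocount, with litter as a term, on 16037 genes with a mean of at least 0.5. Tests were two-sided with Benjamini-Hochberg adjustment over all of them and a threshold of 0.05. edgeR 4.0.16 (quasi-likelihood), DESeq2 1.42.0 and limma-voom on the recovered reads, other scalings, filters, pseudocounts, lanes and left-out libraries were alternatives. On simulated data with 200 changed genes (15930 tested) the procedure found 34% of the 1.5-fold changes, 92% of the 2-fold changes and 100% of the 4-fold and 8-fold changes, with 10 false calls among 173. The changed genes were drawn from those above a read minimum, with a dispersion of 0.05 and a litter SD of 0.1 (natural log). No library was made to deviate. So these shares do not apply to thinly read members such as Kcnma1 and Kcnip1, or to genes where artery 4 stands apart. The litter numbers pair the libraries because the labels say that both pools were made from it. The mean correlation of departures from the group mean was 0.204 for libraries of one litter, with a range of -0.013 to 0.374. Between litters it was -0.041, but departures cancel out within a group, so this value follows from the first and adds no evidence. For 3 of the 6 litters the artery library correlated best with its own ventricle library. Most litters also had both libraries in one lane, so this check cannot separate litter from lane. All pairs of libraries within a group differed beyond sampling noise (chi-square over its degrees of freedom at least 10.1).

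The members, classes and lists were chosen with earlier results of these data known. Values were given for up to 5 members per class and direction with the smallest p, the 2 most abundant members per class that did not pass, up to 4 partner genes per direction, and the rows nearest to the minimum; the values of some of these genes are not reported here, though all members are in the counts. Others are named as chosen after their values were seen. Gene spans and exon lengths came from GENCODE M21 (GRCm38), which held all 60 members, and promoters from RefSeq. Lanes were read from the library descriptions and may belong to different flow cells. Strand was not used, and reads of similar paralogs can be divided between them.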

Additional observations from a re-analysis of the deposited data

Results flagged for a closer look

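Among 84 groups of 6 libraries looked at (the named members and partner genes in each tissue), 13 held a library far from the other 5 by Dixon's criterion (its gap to the nearest other library, over the range of the group, above the 95% critical value). That critical value gives 1 in 20 only for independent, normally distributed values. Here the values were not log-transformed and the groups share the same 12 libraries, so no chance rate is given. Artery 4 was far above the other artery libraries for Kcnd2 (9.79, the others 0.458 to 1.27), Kcnn3 (48.4, the others 6.74 to 10.8) and Kcnq5 (18.1, the others 6.29 to 9.35). Ventricle 2 was far above the other ventricle libraries for Kcnip2 (25.8, the others 8.05 to 12.3), Kcne1 (81.8, the others 30.0 to 46.4), Kcnn2 (10.6, the others 5.27 to 6.98) and Kcnj8 (27, the others 16.8 to 20.5). Artery 1, the shallowest library, was far above the others for Kcnn4 (6.6, the others 2.19 to 2.66) and far below them for Kcnt2 (2.25, the others 7.11 to 8.84). Ventricle 5 was far above for Kcnj15 (8.95, the others 2.13 to 3.74) and Kcnma1 (0.530, the others 0.0799 to 0.142). Artery 3 was far above for Kcnj8 (47.2, the others 15.5 to 21.2) and artery 6 for Kcns3 (5.70, the others 1.76 to 3.12).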

How the results depend on the processing

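The counts of members, 15 higher and 16 lower, were 15 and 16 without the replicate block for litter, 16 and 14 in edgeR and in limma-voom, 16 and 19 in DESeq2, and 17 and 23 without artery 1 and artery 4. Leaving out 1 litter or library at a time gave 13 to 17 higher and 12 to 20 lower. Without the block 30 of the 31 calls were kept, the exception being Kcns1 (adjusted p = 0.055), and edgeR lost Kcna1 (0.0872) and Kcns1 (0.0831). The direction of 29 of the 31 held in each of 33 settings, other scalings included, and that of Kcns1 and Kcnma1 in the 32 that tested them (not at a minimum mean of 1), and 25 passed under every omission of 1 litter. Fewer calls were made within lane 1 (2 higher, 2 lower) and within lane 2 (9 higher, 2 lower), which hold fewer libraries. Over all tested genes, 3760 passed, 3711 without the block, 2247 to 4675 with 1 litter or library left out, 314 within lane 1 and 1440 within lane 2. Named members that did not pass changed sign in some settings, the cause of which was not tested. Kcnj8, at -0.12 to 0.23 with 1 litter or library left out, was at -0.12 without litter 3, -0.11 without artery 3 and -0.19 within lane 2. Kcnk3, at -0.13 to 0.30 over the same omissions, was at -0.086 without litter 1, -0.044 without litter 4, -0.13 without artery 1, -0.020 without ventricle 4, -0.21 without artery 1 and artery 4, and -0.33 within lane 2. Kcnt2 was at -0.27 within lane 1. With classes of 6 to 24 members, class counts moved when 1 litter or library was left out: inward rectifiers lower ranged from 1 to 4, two-pore channels from 0 to 2 in each direction, and voltage-gated subunits lower from 7 to 13. The calls among all partner, calcium and sodium channel genes ranged from 4 to 11 higher and 2 to 6 lower. Low members have limited precision: a value of 0.145 is 1 read in artery 1.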
